A study of Mus musculus with 8 samples.

Results

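The transcripts described here encode 10 receptor tyrosine kinases, chosen by their symbols (Egfr, Erbb2, Erbb3, Fgfr1, Fgfr2, Pdgfra, Pdgfrb, Met, Ret and Ntrk2) from the 31053 genes in the deposited matrices, and all 10 symbols were found. They were measured by single-cell RNA-seq in SN4741, a mouse neural precursor line with the genotype given as WT, in 8 libraries. Undifferentiated cells (4 libraries) were grown at 37°C in 10% fetal bovine serum, and differentiating cells (4 libraries) were moved to 39°C and 0.5% serum 24 hours after passage and harvested 48 hours later, so temperature and serum cannot be told apart in any comparison between them. All cells of both groups carry the temperature-sensitive SV40 T antigen tsA58, driven by the tyrosine hydroxylase promoter, and the line is a single clone with an unstable, mostly triploid karyotype. The labels do not say whether the 4 libraries of a temperature came from separate cultures, so no p-value covers more than the spread between these libraries. That spread may be technical. The edgeR p-values also pool it over genes, so they do not measure the spread of each gene alone.

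A receptor tyrosine kinase spans the cell membrane, binds a growth factor outside the cell and, once paired with another receptor, phosphorylates itself and its partners on tyrosine. Adaptor proteins then bind the phosphorylated tyrosines and pass the signal to the RAS-ERK and PI3K pathways, which drive division, survival or differentiation depending on the cell. In the ventral midbrain, Ret is the signalling receptor for GDNF, a survival factor of dopaminergic neurons, and Ntrk2 is the receptor for BDNF, while Egfr and the FGF receptors are known for maintaining neural precursors in culture.

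After filtering, 18351 cells were kept, 985 to 3494 per library, with 17166686 to 29633818 unique molecular identifiers (UMIs, counted transcript molecules) per library. No pair of libraries shared more than 5 cell barcodes. Of the neural precursor markers, Nes averaged 467 CPM (counts per 1000000 counts of the library) at 37°C and 108 at 39°C, Sox2 55.4 and 76.5, and Vim 5396 and 5166, whereas Pax6 had 3 UMIs and Fabp7 had 6 UMIs in all 8 libraries. For other cells that use these receptors, 3 of 5 oligodendrocyte precursor genes (Olig1, Olig2 and Sox10) had 0 UMIs and Gpr17 had 1. Cspg4 of that list averaged 24.8 and 31.3 CPM. Of 5 mural cell genes, Kcnj8 and Higd1b had 0 UMIs, Abcc9 had 2 and Rgs5 had 8, but Ndufa4l2 had 659. Ndufa4l2 fell from 4.88 to 1.17 CPM (log2 fold change -2.06, edgeR adjusted p = 3.09e-11). The summed mural list thus ran from 4.70 to 5.31 CPM at 37°C and from 1.002 to 1.31 CPM at 39°C. Of the astrocyte genes, Gfap had 3 UMIs, Aqp4 2, S100b 33, Slc1a3 2672 and Aldh1l1 855. Of the dopaminergic genes, Th had 7, Slc6a3 2, Pitx3 4, Ddc 1, Nr4a2 847 and Slc18a2 119. The fibroblast list was not near 0: its summed level ran from 1695 to 1733 CPM at 37°C and from 747 to 779 CPM at 39°C. Nearly all of it came from Col1a1 and Col1a2, while Col3a1 had 1438 UMIs, Dcn 22 and Lum 1. The mural sum was nearly all Ndufa4l2, while Rgs5 (3 UMIs at 37°C and 5 at 39°C) and Abcc9 (0 and 2) were not lower at 39°C. Ndufa4l2 and the summed fibroblast list were thus lower at 39°C, as Pdgfrb and the precursor marker Nes were. The part of these marker genes in the receptor results was not tested.

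Before the values, the stretches upstream of 3 of these genes are shown, because Egfr and Met rose together at 39°C and Erbb2, a close relative of Egfr, did not pass the test. Sequences are from the RefSeq promoter table for GRCm38.p6, which held 6 of the 10 receptors (Egfr, Erbb2, Met, Fgfr2, Ntrk2 and Pdgfra). Capitals mark the GC box, searched as GGGCGG and its reverse complement CCGCCC, the letters bound by Sp1-family factors. Each stretch reads 5′ to 3′ on the plus strand and stops before the first annotated base of the gene. The Egfr stretch is chr11:16751953-16752202, the Met stretch chr6:17463707-17463799 and the Erbb2 stretch chr11:98412234-98412469.
Egfr: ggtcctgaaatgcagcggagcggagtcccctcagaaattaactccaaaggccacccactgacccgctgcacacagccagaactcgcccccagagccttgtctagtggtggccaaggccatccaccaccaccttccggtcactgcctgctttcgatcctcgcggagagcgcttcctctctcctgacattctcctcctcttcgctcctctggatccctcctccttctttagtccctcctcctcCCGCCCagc
Met: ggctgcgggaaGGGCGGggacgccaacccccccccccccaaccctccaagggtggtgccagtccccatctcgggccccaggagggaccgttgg
Erbb2: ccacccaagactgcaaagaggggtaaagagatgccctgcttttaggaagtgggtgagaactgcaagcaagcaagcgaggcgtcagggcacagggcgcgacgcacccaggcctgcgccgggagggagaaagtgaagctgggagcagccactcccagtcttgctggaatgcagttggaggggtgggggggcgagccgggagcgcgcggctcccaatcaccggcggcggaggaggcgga

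In the full 250 bases before the RefSeq start, the GC box occurred 1 time for Egfr, 3 times for Met and 0 times for Erbb2. Of the 3 for Met, 1 lies in the printed stretch. The GC box also occurred 0 times for Ntrk2, Pdgfra and Fgfr2, and 32.7% of all 32851 promoters of that length held at least 1. The 3 genes shown were picked by their temperature results, and any link between these letters and those results was not tested. The CCAAT box, searched as CCAAT and ATTGG, occurred 1 time for Erbb2 and 0 times for Egfr and Met, against 33.8% of all promoters with at least 1. The TATA box, searched as TATAAA and TTTATA, occurred in none of the 3, against 12.4% of all promoters. The 3 windows were rich in G and C, with 60.8% for Egfr, 74.0% for Met and 66.0% for Erbb2 beside a median of 52.4% over all promoters.

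The first comparison asked how the receptors differ between the permissive and the non-permissive temperature when all kept cells of a library are summed. Fgfr1, Egfr, Met, Erbb3 and Ret rose at 39°C, by 1.49-fold to 2.23-fold. Pdgfrb fell to 0.888 times its 37°C level, and Erbb2, Pdgfra, Fgfr2 and Ntrk2 did not pass the test. A gene passed at an adjusted p under 0.05 in edgeR's quasi-likelihood test over 15810 genes. Thus 5 of 10 receptors rose, where 31.5% of all tested genes did, and 1 fell, where 30.5% of all tested genes did. The 37°C and 39°C libraries were fully separated for 6 of 10 receptors and for 56.7% of all tested genes. In edgeR, 0 of the 10 passed the stricter limits of the study (an adjusted p below 0.01 with a log2 difference beyond 1.5 either way), which 5.83% of tested genes passed. At an unadjusted p under 0.05 there were 6 of the 10, beside 10273 of the 15810 tested genes. DESeq2 also gave 0 past the stricter limits. The median log2 fold change was 0.27 over the 10 receptors and 0.02 over all genes tested.

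**Figure D1:**
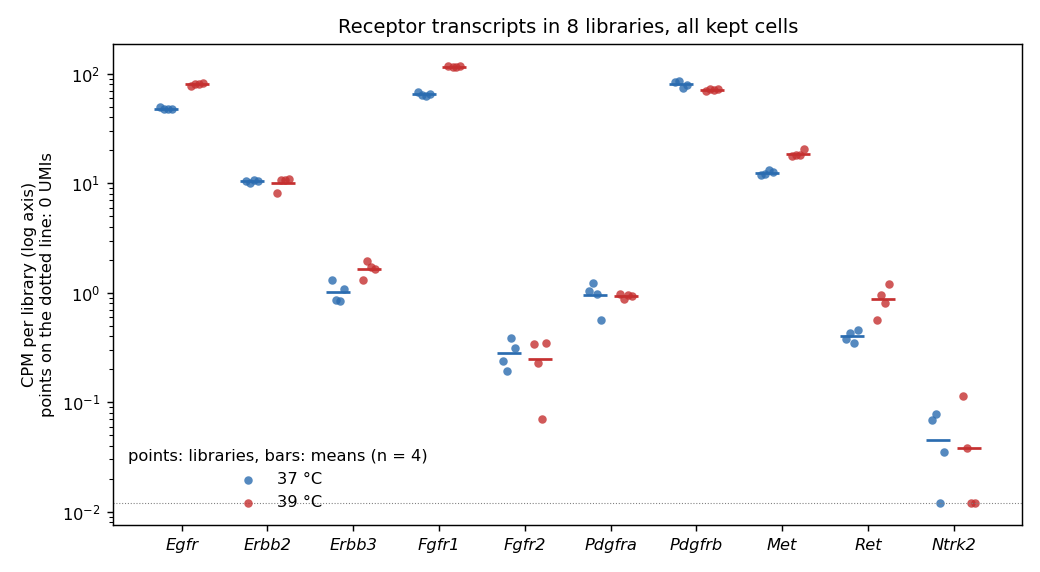
CPM of each receptor on a log axis, 1 point per library (37°C in blue, 39°C in red, 4 libraries each) with a bar at the mean. Fgfr1, Egfr and Met are clearly separated by temperature, Pdgfrb is separated by a small margin, and the Ntrk2 points rest on 0 to 2 UMIs per library.

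The levels fell into 3 tiers on the CPM scale of 3′-end counts, which count the 3′ end of a molecule and so are not divided by transcript length. Pdgfrb, Fgfr1 and Egfr lay between 47.4 and 118 CPM in every library, Met and Erbb2 between 8.17 and 20.4 CPM, and the other 5 at no more than 1.93 CPM. At 37°C the order of the top 3 was Pdgfrb, Fgfr1 and Egfr, with no overlap between neighbours. At 39°C it was Fgfr1, Egfr and Pdgfrb, again with no overlap. Met lay above Erbb2 at both temperatures. A library sum cannot tell fewer cells with a transcript from less transcript per cell.

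The EGF receptor family was represented by Egfr, Erbb2 and Erbb3. Egfr (ENSMUSG00000020122, chr11:16752203-16918158 in GRCm38) binds EGF, TGF-alpha and amphiregulin, and it read 49.98, 47.4, 47.9 and 47.4 CPM in the 4 libraries at 37°C and 76.8, 81.0, 79.9 and 82.0 CPM in the 4 at 39°C. Every 39°C library lay far above every 37°C library, and the means were 48.1 ± 1.25 and 79.9 ± 2.26 CPM (SD, n = 4). The log2 fold change of Egfr was 0.73 (SE 0.0437, adjusted p = 2.58e-11). Erbb2, which has no ligand of its own and serves as the partner of the other family members, read 10.6, 9.999, 10.7 and 10.6 CPM at 37°C and 8.17, 10.6, 10.7 and 10.8 CPM at 39°C. Its groups overlapped, with 39°C replicate 1 below all other libraries, and the log2 fold change was -0.04 (SE 0.0795, adjusted p = 0.722). Without that library the log2 fold change was 0.03 (adjusted p = 0.755). In the annotation Erbb2 overlaps Mien1 on the opposite strand, and Egfr overlaps the opposite-strand gene Egfros.

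Erbb3, a neuregulin receptor with little kinase activity of its own, was rare, with 115 UMIs at 37°C and 166 at 39°C. It read 1.30, 0.853, 0.841 and 1.09 CPM at 37°C and 1.30, 1.93, 1.73 and 1.66 CPM at 39°C. The highest 37°C library and the lowest 39°C library nearly touched. The log2 fold change was 0.71 (SE 0.186, adjusted p = 0.00257), and it was 0.44 with an adjusted p of 0.0725 after thinning all libraries to the same total, so this call did not hold at equal depth.

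Of the FGF receptors, Fgfr1 showed the largest difference for its error and Fgfr2 was close to absent. Fgfr1 (ENSMUSG00000031565, chr8:25513654-25575718) read 68.4, 64.7, 63.1 and 65.3 CPM at 37°C and 117, 115, 115 and 118 CPM at 39°C. The groups were far apart, with 65.4 ± 2.23 and 116 ± 1.64 CPM (SD, n = 4) and a log2 fold change of 0.83 (SE 0.0436, adjusted p = 3.89e-12). Fgfr2, which binds FGF7 and FGF10 in its epithelial form, had 32 UMIs in all 37°C cells and 23 in all 39°C cells. That is 0.283 CPM (95% exact Poisson interval 0.193 to 0.399) and 0.236 CPM (0.150 to 0.355), intervals that cover counting error only and that overlap. The log2 fold change of Fgfr2 was -0.28 (SE 0.432, adjusted p = 0.603). The annotated span of Fgfr2 overlaps 69 other genes, counted on both strands, and whether this affects its few counts was not checked.

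The PDGF receptors did not share the rise of Fgfr1 and Egfr. Pdgfrb (ENSMUSG00000024620, chr18:61045150-61085061), the receptor for PDGF-BB that is prominent on mural and mesenchymal cells, read 83.9, 85.8, 73.6 and 79.3 CPM at 37°C and 69.6, 72.6, 71.8 and 72.4 CPM at 39°C. All 39°C libraries lay below all 37°C libraries, though the gap was small beside the 37°C spread, and the log2 fold change was -0.17 (SE 0.0501, adjusted p = 0.00597). Pdgfra, the receptor for PDGF-AA that marks oligodendrocyte precursors and many fibroblasts, read 1.03, 1.24, 0.982 and 0.562 CPM at 37°C and 0.965, 0.871, 0.956 and 0.925 CPM at 39°C. The groups overlapped (log2 fold change -0.03, SE 0.227, adjusted p = 0.914).

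Met (ENSMUSG00000009376, chr6:17463800-17573980), the receptor for hepatocyte growth factor, read 11.9, 12.1, 13.3 and 12.8 CPM at 37°C and 17.9, 17.98, 18.3 and 20.4 CPM at 39°C. The groups did not overlap, the means were 12.5 ± 0.670 and 18.7 ± 1.20 CPM (SD, n = 4), and the log2 fold change was 0.58 (SE 0.0633, adjusted p = 1.57e-07). Its ligand Hgf averaged 0.120 and 0.122 CPM in the same libraries (adjusted p = 0.954).

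Ret (ENSMUSG00000030110, chr6:118151745-118197718) had 45 UMIs in 8550 cells at 37°C and 89 UMIs in 9801 cells at 39°C. The libraries held 11, 11, 10 and 13 UMIs at 37°C, or 0.377, 0.426, 0.351 and 0.456 CPM, and 10, 25, 23 and 31 UMIs at 39°C, or 0.567, 0.946, 0.814 and 1.20 CPM. The groups did not overlap on the CPM scale. Ret had the largest log2 fold change of the 10, 1.16 (SE 0.265, adjusted p = 0.000813), on the fewest UMIs of the 5 that rose. The pooled levels were 0.397 CPM (95% exact Poisson interval 0.290 to 0.532) and 0.915 CPM (0.734 to 1.13). At 39°C, 85 of 9801 cells held a Ret UMI, and 81 of these held exactly 1.

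Ntrk2, the BDNF receptor TrkB, had 5 UMIs at 37°C and 3 at 39°C. The libraries held 2, 2, 0 and 1 UMIs and 2, 1, 0 and 0 UMIs, and a difference between such counts is below what this depth can show (log2 fold change -0.48, SE 1.03, adjusted p = 0.709). The pooled level was 0.0442 CPM (95% exact Poisson interval 0.0143 to 0.103) at 37°C and 0.0308 CPM (0.00636 to 0.0901) at 39°C. The ligand Bdnf, by contrast, read 82.0 ± 1.30 and 81.1 ± 4.31 CPM (SD, n = 4, adjusted p = 0.805).

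The second comparison kept only cells assigned to G1, because G1 cells made up 24.1% ± 3.41 of the cells at 37°C and 84.3% ± 1.22 at 39°C (SD, n = 4). That contrast depends on how phases are scored: with scoring inside each library the shares were 40.2% ± 2.21 and 55.9% ± 2.23, and 5 receptors were higher and 1 lower. Fgfr1, Egfr, Met and Erbb3 were again higher at 39°C and Pdgfrb was again lower. Ret did not pass, and neither did Erbb2, Pdgfra or Fgfr2. So 4 of the 9 tested receptors rose, where 24.8% of 14712 tested genes did, and 1 fell, where 22.4% did. Separation of the libraries was seen for 5 of the 9 and for 44.0% of genes. Ntrk2 was too rare in G1 cells to be tested. In edgeR 0 of the 9 passed the stricter limits, which 2.54% of genes passed, and DESeq2 also gave 0. At an unadjusted p under 0.05 there were 6 of the 9, beside 7755 of the 14712 genes.

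Fgfr1 in G1 cells read 82.5, 87.9, 84.1 and 83.5 CPM at 37°C and 124, 119, 119 and 124 CPM at 39°C. The groups did not overlap, and the log2 fold change was 0.52 (SE 0.0504, adjusted p = 1.07e-08), beside 0.83 in all cells. Pdgfrb moved the other way: it read 91.5, 95.6, 88.8 and 94.3 CPM at 37°C and 72.8, 71.7, 71.6 and 72.7 CPM at 39°C, and its log2 fold change was -0.36 (SE 0.0499, adjusted p = 2.77e-06), beside -0.17 in all cells. The difference between the comparisons was not tested, since the G1 cells are among the cells of both. Egfr read 55.2, 54.8, 56.0 and 47.3 CPM at 37°C and 79.6, 84.2, 83.4 and 86.4 CPM at 39°C (log2 fold change 0.64, SE 0.0588, adjusted p = 4.85e-09). Met rose by 0.42 on the log2 scale (SE 0.0912, adjusted p = 0.000506) and Erbb3 by 1.18 (SE 0.336, adjusted p = 0.00584). Erbb2 read 11.1, 12.5, 11.03 and 11.9 CPM against 8.20, 11.1, 10.7 and 10.7 CPM, with overlap and a log2 fold change of -0.16 (SE 0.113, adjusted p = 0.245).

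For the rare receptors the G1 sums at 37°C were thin. Ret rested on 2, 3, 2 and 4 UMIs at 37°C and 9, 21, 20 and 26 at 39°C, which overlapped on the CPM scale (0.273, 0.558, 0.345 and 0.731 against 0.605, 0.944, 0.842 and 1.22). Its log2 fold change of 0.99 (SE 0.439, adjusted p = 0.0687) passed without 39°C replicate 1 (1.10, adjusted p = 0.0392), with the updated phase lists (1.07, adjusted p = 0.0478) and with phases scored in each library (1.15, adjusted p = 0.0131). Pdgfra read 2.46, 1.86, 1.03 and 0.366 CPM at 37°C and 1.01, 0.944, 1.05 and 0.987 CPM at 39°C. The 37°C libraries lay on both sides of the 39°C libraries (log2 fold change -0.58, SE 0.350, adjusted p = 0.186), and without 37°C replicate 4 the call was gained (-0.87, adjusted p = 0.0313).

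**Figure D2:**
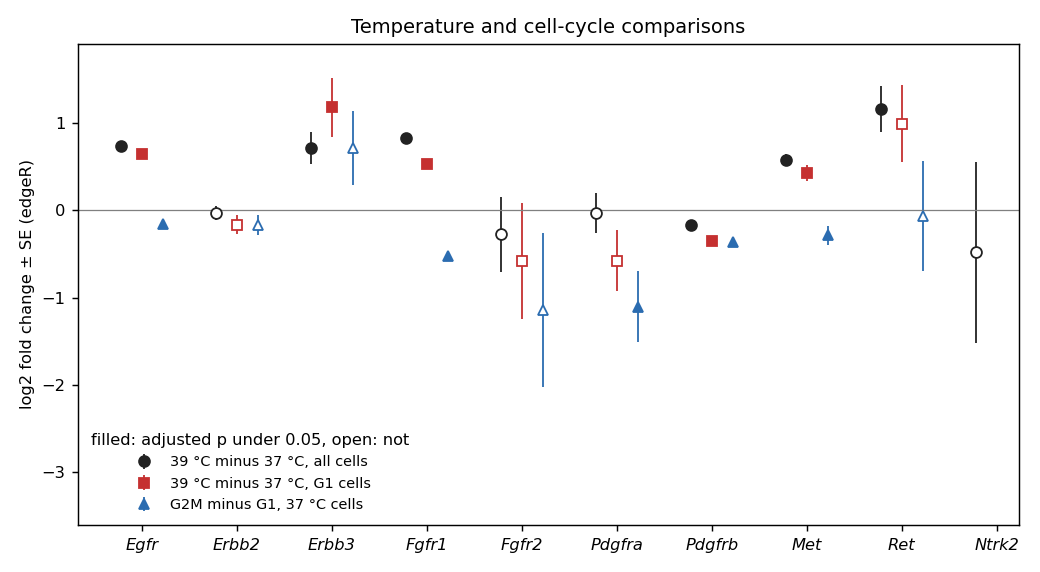
Log2 fold change with its SE for each receptor in 3 edgeR comparisons (39°C minus 37°C in all cells, the same in G1 cells, and G2M minus G1 within 37°C libraries), with filled symbols for an adjusted p under 0.05. Fgfr1, Egfr and Met lie above 0 for temperature in both cell sets and below 0 for G2M against G1, while Pdgfrb lies below 0 in all 3.

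The third comparison asked how the receptors vary over the cell cycle in undifferentiated cells, with a G1 and a G2M sum from each of the 4 libraries at 37°C and the library as a block. Pdgfrb, Fgfr1, Pdgfra, Met and Egfr were lower in G2M than in G1 cells, and none of the 9 tested was higher. That is 5 of 9 receptors, where 21.3% of 14230 tested genes were lower, and 0 higher, where 23.2% were (0 also at an unadjusted p under 0.05 and with DESeq2). The G1 and G2M values did not overlap for 2 of the 9, beside 33.7% of genes, and 0 of 9 passed the stricter limits in edgeR, beside 3.53%. Fgfr1 went from 81.7, 87.6, 83.4 and 82.9 CPM in G1 cells to 64.0, 54.9, 54.2 and 59.2 CPM in G2M cells of the same libraries, lower in 4 of 4 (log2 fold change -0.52, SE 0.0493, adjusted p = 3.52e-25). Pdgfrb went from 90.6, 95.2, 88.0 and 93.5 CPM to 77.3, 77.7, 61.1 and 68.8 CPM, also lower in 4 of 4 (-0.37, SE 0.0463, adjusted p = 2.85e-14). The edgeR p-values of this comparison rest on a spread pooled over genes, not on the 4 libraries of each gene alone.

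The other 3 calls were weaker. Egfr fell by 0.16 on the log2 scale (SE 0.0570, adjusted p = 0.0131), Met by 0.29 (SE 0.105, adjusted p = 0.0152) and Pdgfra by 1.10 (SE 0.406, adjusted p = 0.0169). With DESeq2 all 3 were lost (adjusted p = 0.219, 0.246 and 0.318). Single libraries also decided them: Egfr was lost without replicate 2 (adjusted p = 0.0799) or 3 (0.165), Met without replicate 4 (0.181), and Pdgfra without replicate 1 (0.306) or 2 (0.0830). Erbb2, Erbb3, Ret and Fgfr2 had log2 fold changes of -0.17, 0.71, -0.07 and -1.14, with adjusted p of 0.227, 0.166, 0.9502 and 0.314.

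At both temperatures the levels can be read phase by phase, here as CPM of the plain total of each library's cells in that phase. Fgfr1 was at 85.0 ± 2.99, 61.2 ± 0.957 and 57.2 ± 4.15 CPM in G1, S and G2M cells at 37°C, and at 121 ± 3.42, 103 ± 6.36 and 87.9 ± 10.8 CPM at 39°C (SD, n = 4). In every phase the lowest 39°C library of Fgfr1 lay above the highest at 37°C, and the same held for Egfr and Met. Egfr was at 82.9 ± 2.38, 65.9 ± 1.06 and 78.6 ± 8.95 CPM in G1, S and G2M cells at 39°C. Pdgfrb was lower at 39°C in G1 cells, at 93.1 ± 2.99 and 71.8 ± 1.18 CPM, but its libraries overlapped in S cells, at 82.2 ± 3.95 and 86.1 ± 11.4 CPM. In G2M cells Pdgfrb was lower at 39°C without overlap, at 61.3 to 75.99 CPM and 17.8 to 59.3 CPM. The G2M values at 39°C rest on few cells, since G2M cells made up 4.43% ± 1.06 of a 39°C library. Met there had 73 UMIs over the 39°C libraries.

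**Figure D3:**
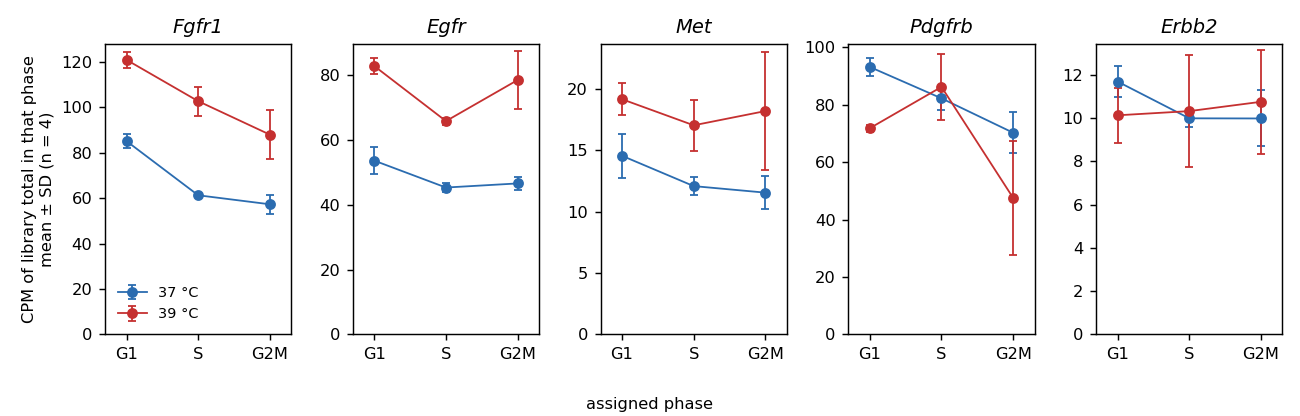
Mean CPM ± SD (n = 4 libraries) of 5 receptors in cells assigned to G1, S and G2M, with 37°C in blue and 39°C in red and each axis starting at 0. By CPM, Fgfr1, Egfr and Met are higher at 39°C in each phase. Pdgfrb is lower at 39°C in G1 and G2M and overlaps in S, and Erbb2 overlaps throughout. The G2M points at 39°C rest on few cells, and at equal depth per cell Fgfr1 and Met overlapped in G2M.

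How many cells had a UMI of each receptor was compared at the same depth, by thinning every cell with enough UMIs to 5000. This used 7882 cells at 37°C and 8133 at 39°C, and left out 668 and 1668 shallower cells. Thinning to 10000 UMIs used 5345 and 3930 cells and left out 3205 and 5871, so it describes the deeper cells only. The median cell held 6676 to 16665 UMIs before thinning, depending on the library. Fgfr1 was detected in 25.9% ± 1.13 of cells at 37°C and 41.1% ± 1.41 at 39°C (SD, n = 4), and Egfr in 19.4% ± 1.04 and 30.3% ± 0.941. Met went from 5.77% ± 0.395 to 9.04% ± 0.434, and Pdgfrb from 31.3% ± 0.550 down to 27.8% ± 0.833.

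For these 4 receptors and for Ret, at 0.140% ± 0.0391 and 0.487% ± 0.263, the 37°C and 39°C libraries were fully separated (exact permutation test, two-sided, 70 assignments, p = 0.02857, the smallest it can give, adjusted p = 0.0514 over 9 receptors). So 5 of 9 passed before and 0 of 9 after adjustment. These shares were computed for the receptors only, so the counts here have no share over all genes beside them. In the library sums 56.7% of all tested genes were separated. At 10000 UMIs, and also without 39°C replicate 1, 6 of 9 passed both before and after adjustment (exact permutation p = 0.02857, adjusted p = 0.04286), Erbb3 being the sixth. All separated receptors share the smallest p, so whether they pass after adjustment turns on how many are separated. The change from 0 to 6 thus came from Erbb3 joining and does not measure more support for the others. Erbb2 (5.38% and 4.77%, exact permutation p = 0.486), Erbb3 (0.552% and 0.788%, p = 0.114), Pdgfra (0.635% and 0.366%, p = 0.171) and Fgfr2 (0.161% and 0.182%, p = 0.771) overlapped. Ret rested on 2, 2, 3 and 4 cells at 37°C and on 2, 14, 8 and 20 cells at 39°C. Its separation hung on 39°C replicate 1, at 0.211% beside 0.176% in the highest 37°C library. At 2000 UMIs, 39°C replicate 3 had 0 cells with Ret, so Ret was not tested. The exact permutation p of Ret was 0.05714 when any of the 37°C libraries was left out. Its libraries were still fully separated then, and the difference, 0.331 to 0.359 percentage points, was close to the 0.347 of all libraries. Without thinning, at the libraries' unequal depths, only Ret among the 9 was separated, and Fgfr1 was found in 50.2% ± 6.14 and 60.3% ± 10.4 of cells (exact permutation p = 0.114). Each library is a single cultured line with no cell type that should lack these genes, so the share given by free RNA was not measured.

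Counts of Erbb2 and Met in thinned cells had a variance over mean of 0.942 to 1.07 across the 8 libraries, near the value of 1 that random sampling gives. Their means were only 0.0306 to 0.104 UMIs per cell. At such means the ratio stays near 1 whether or not cells differ, so it cannot show if they do. For Pdgfrb, Fgfr1 and Egfr that ratio was above 1 in all 8 libraries, at 1.09 to 1.32. Their means were higher, at 0.221 to 0.591 UMIs per cell, so these ratios cannot be set against those of Erbb2 and Met. The most Pdgfrb UMIs found in a thinned cell were 10. The mean number of different receptors detected per cell was 0.892 ± 0.00981 at 37°C and 1.15 ± 0.0236 at 39°C (SD, n = 4). Cells with no UMI of the 10 made up 36.9% ± 0.846 and 24.9% ± 1.04, and cells with 3 or more detected 4.11% ± 0.270 and 6.82% ± 0.724. The libraries did not overlap in any of these 3 measures (exact permutation p = 0.02857 each). A cell without a UMI may still hold the transcript, since detection depends on depth. At 37°C, Fgfr1 was found in 11.7%, 25.9% and 45.0% of cells at 2000, 5000 and 10000 UMIs.

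**Figure D4:**
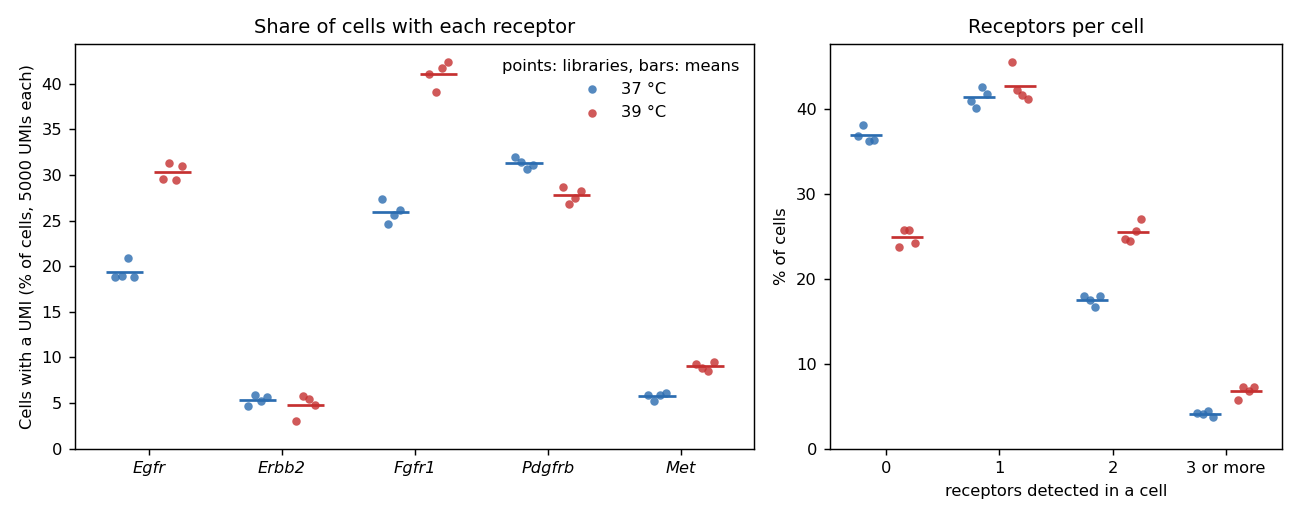
Left, share of cells (each thinned to 5000 UMIs) with at least 1 UMI of 5 receptors, and right, share of cells with 0, 1, 2, or 3 or more of the 10 receptors detected, with 1 point per library and a bar at the mean (37°C in blue, 39°C in red). More 39°C cells have a UMI of Fgfr1, Egfr and Met, and fewer have one of Pdgfrb. Cells with none of the 10 detected at this depth fall from 36.9% to 24.9%.

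Receptors were also counted in pairs within a cell. The share of thinned cells with both members of a pair was divided by the product of the 2 shares in each library, as a description with no test, since cells of a library are not replicates. Fgfr1 and Met were found together 1.21 ± 0.0473 times as often as that product at 37°C and 1.19 ± 0.0584 times at 39°C (SD, n = 4), above 1 in all 8 libraries. These ratios were lower, 1.11 and 1.08, when cells were thinned to 10000 UMIs, a setting that used only the deeper 5345 and 3930 cells. Pdgfrb and Egfr were together 0.916 ± 0.0698 and 0.816 ± 0.0689 times as often, under 1 in all 8 libraries. At 10000 UMIs that pair gave 0.984 ± 0.0134 and 0.859 ± 0.0302, with 37°C replicate 4 at 1.004. Cells with UMIs of both Fgfr1 and Egfr made up 5.55% of cells at 37°C and 13.3% at 39°C, with ratios of 1.10 ± 0.0533 and 1.07 ± 0.0180. Erbb2 and its partner Erbb3 were detected together in 0 of 7882 thinned cells at 37°C and 2 of 8133 at 39°C. The product of their shares gives 2.33 and 3.51 cells. At 10000 UMIs there were 3 and 4 such cells beside 4.46 and 5.44. Phase was not held constant in these ratios, and its part in them was not tested.

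The ligands of these receptors were next compared in the same libraries (39°C minus 37°C, all cells). Of 28 tested ligand genes of a list of 37, 11 rose and 6 fell, with a median log2 fold change of 0.34. Over all tested genes in this comparison 31.5% rose and 30.5% fell. The FGF ligands Fgf2 and Fgf18 had the largest rises among ligands at 5 CPM or more. Fgf2 went from 5.96 ± 0.877 to 25.4 ± 1.28 CPM (log2 fold change 2.09, adjusted p = 3.69e-14) and Fgf18 from 10.1 ± 1.19 to 44.4 ± 1.83 CPM (2.13, adjusted p = 2.31e-15, SD, n = 4). Tgfa, an Egfr ligand, rose from 5.38 ± 0.591 to 10.5 ± 0.733 CPM (0.97, adjusted p = 1.02e-08). Artn, a ligand of Ret through Gfra3, fell from 16.1 ± 1.30 to 8.28 ± 0.708 CPM (-0.96, adjusted p = 1.87e-09). All 4 also passed in G1 cells, with log2 fold changes of 1.53 for Fgf2, 1.504 for Fgf18, 0.82 for Tgfa and -0.90 for Artn.

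The partners of Ret moved in both directions. Gdnf, its ligand, fell from 32.3 ± 2.82 to 23.005 ± 1.45 CPM (log2 fold change -0.49, adjusted p = 1.6e-06), and by 0.35 in G1 cells (adjusted p = 0.000718). Gfra1, the co-receptor that presents GDNF to Ret, rose from 10.2 ± 1.56 to 13.95 ± 1.87 CPM in all cells (0.43, adjusted p = 0.00094), with overlapping libraries. In G1 cells Gfra1 was at 16.1 ± 1.97 and 14.1 ± 2.04 CPM, with a log2 fold change of the opposite sign that did not pass (-0.23, adjusted p = 0.098). Of the 18 co-receptors and binding partners listed, 13 were tested, and 8 rose and 4 fell, beside 31.5% and 30.5% of all genes, with a median of 0.43. Nrp1, the neuropilin that binds VEGF and semaphorins, had the largest rise among those, from 80.5 ± 2.53 to 158 ± 11.9 CPM (0.97, adjusted p = 6.84e-12), followed by the syndecan Sdc1 (0.61), the FGF-binding Fgfrl1 (0.58) and Cd44 (0.51).

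Other receptor tyrosine kinases moved in both directions. Of 48 listed, 35 were tested, and 15 rose and 4 fell, beside 31.5% and 30.5% of all genes, with a median log2 fold change of 0.21, while 8, among them Kit and Erbb4, had 0 UMIs. Ryk, a Wnt receptor with an inactive kinase, fell from 205 ± 5.97 to 103 ± 2.21 CPM (log2 fold change -0.995, adjusted p = 3.59e-13). Ddr2, a collagen receptor, fell by 1.55 on the log2 scale (5.68 to 1.91 CPM, adjusted p = 2.25e-10). Mertk, which takes part in the uptake of dying cells, rose by 1.06 (4.92 to 10.3 CPM, adjusted p = 5.42e-09) and Ptk7, a pseudokinase of Wnt signalling, by 0.87 (21.2 to 39.1 CPM, adjusted p = 3.06e-10).

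Downstream, 13 of 22 tested adaptors and effectors rose and 4 fell (median log2 fold change 0.24), and 10 of 14 tested negative regulators rose and 2 fell (median 0.42), again beside 31.5% and 30.5% of all genes. The docking proteins Irs2 (0.92), Gab2 (0.74) and Gab1 (0.59) were among the adaptors that rose. Among the negative regulators the receptor phosphatase Ptprj rose from 13.5 ± 0.790 to 29.9 ± 1.98 CPM (1.15, adjusted p = 4.36e-12), the adaptor Sh2b3 rose by 0.68 and Errfi1, an inhibitor of Egfr, by 0.64, while Grb10 fell by 0.85. Genes switched on by ERK signalling had the highest median of the 6 lists, 1.17, and 9 of 10 tested rose while Dusp5 fell (-0.27, adjusted p = 0.0113). The transcription factor Etv4 went from 6.97 ± 0.935 to 32.7 ± 1.75 CPM (2.23, adjusted p = 5.81e-15), Etv5 rose by 1.84, the phosphatase Dusp4 by 1.56 and the inhibitor Spry1 by 1.45.

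In G1 cells, 8 of 10 tested ERK output genes rose and 0 fell (median log2 fold change 0.97), 7 of 14 negative regulators rose and 2 fell (0.29), and 10 of 22 adaptors and effectors rose and 2 fell (0.13). Of the ligands, 8 of 27 rose and 7 fell, of the co-receptors 6 of 13 rose and 1 fell, and of the other receptor tyrosine kinases 11 of 30 rose and 3 fell. Over all genes tested in G1 cells 24.8% rose and 22.4% fell, close to the shares of the ligands. The named ERK output genes were higher at 39°C there too, with log2 fold changes of 2.32 for Etv4, 1.45 for Spry1, 1.34 for Etv5 and 1.25 for Dusp4. Grb14, an inhibitory adaptor, fell in G1 cells (11.7 to 5.64 CPM, log2 fold change -1.06, adjusted p = 3.77e-07), and Sdc2 fell by 0.52 while Sdc3 rose by 0.59 and Cspg4 by 0.57. Epha2 (0.73) and the collagen receptor Ddr1 (0.59) rose in G1 cells, as did Ptk7 (0.77), and Ryk fell (-0.98). Calls in G1 cells also included Nrp1 (0.72), Irs2 (0.80), Gab1 (0.58), Gab2 (0.50), Ptprj (0.98), Grb10 (-0.94) and Errfi1 (0.60).

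**Figure D5:**
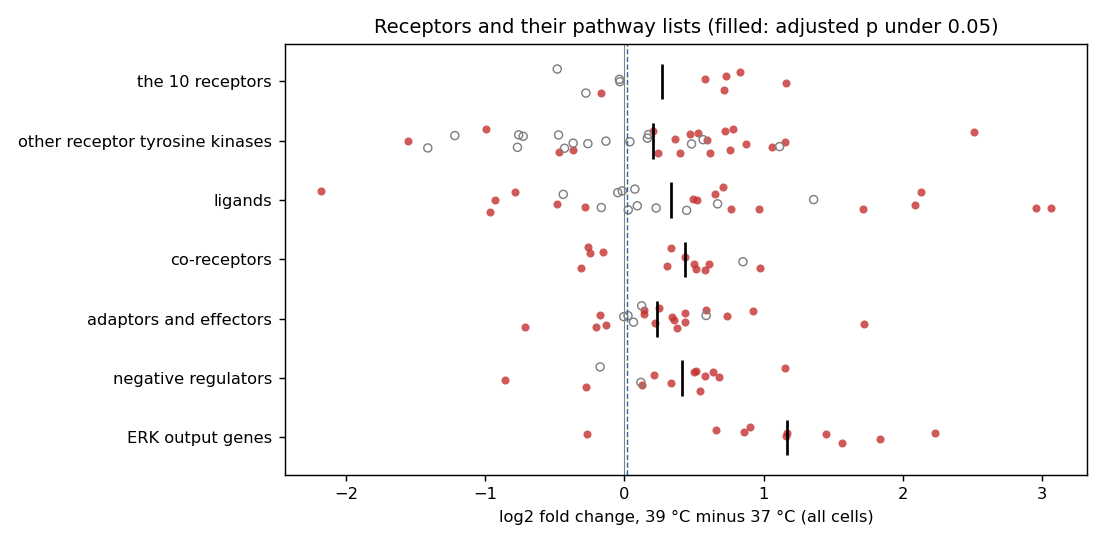
Log2 fold change (39°C minus 37°C, all cells) of each tested gene in the 10 receptors and 6 pathway lists, with filled points for an adjusted p under 0.05, a black bar at each list's median and a dashed line at the median of all genes (0.02). The ERK output genes lie farthest to the right, with a median of 1.17, and the 10 receptors have a median of 0.27.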

How the data were processed

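The authors aligned 3′ reads (Chromium V3) to mm10 (GRCm38) with Cell Ranger 3.0.1 and deposited, for each library, raw UMI counts per gene and cell. These matrices, with their gene and barcode lists, were the files used. Cells with over 15% mitochondrial UMIs, under 200 genes or over 6000 genes were left out. No doublet caller was run, and the upper limit on genes was the guard against doublets. Phases were assigned with Seurat 5.3.0 (CellCycleScoring, cc.genes, symbols turned to mouse by letter case). Cells are no replicates, so counts were summed per library over all kept cells, G1 cells or G2M cells. Genes averaging 1 or more counts a library were tested with edgeR 4.0.16 (R 4.3.3; TMM factors, glmQLFit, glmQLFTest, Benjamini-Hochberg over all genes tested), with temperature alone, or phase with library as a block. SEs are the fold change over the square root of F. CPM are per 1000000 counts of tested genes, scaled by TMM factors, except where plain totals or pooled levels are named. Exact permutation tests used scipy 1.17.1, in Python 3.11.15. The procedures were tested on simulated data. Libraries of 17166686 to 29633818 UMIs held 0 to 51 UMIs of each receptor under 2 CPM.

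The receptors, gene lists and tests were chosen with earlier results of these data known. All 10 receptors are given in every comparison. From each other list, the text names up to 4 genes with an adjusted p under 0.05 and the largest change among those at 5 CPM or more at a temperature, with Gfra1 and Gdnf whatever their values. Some genes that this rule names are not reported here. Bdnf, Hgf, Dusp5, Kit, Erbb4 and the marker genes given were named after their values were seen. Positions are from GENCODE M21. The alternatives were RLE, upper quartile or no scaling factors, filterByExpr or no filter, DESeq2 1.42.0, a replicate block, equal totals, other cell filters and phase assignments, other thinning depths, and each library left out in turn.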

Additional observations from a re-analysis of the deposited data

Results flagged for a closer look

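Within groups of 4 libraries, the highest or lowest value of each receptor was set against the other 3, and it was taken to stand apart where its gap to the nearest, as a part of the group's whole range, passed Dixon's 95% critical value. Of 76 groups of 4, 8 had such a library, and chance alone would give about 1 in 20 separate groups. These groups share cells: 37°C G1 cells enter both the temperature and the phase comparison, and also the sums over all cells. The number found therefore cannot be set against that rate. For Erbb2 in all cells, 39°C replicate 1 read 8.17 CPM beside 10.6 to 10.8 CPM in the others, and 37°C replicate 2 read 9.999 CPM beside 10.6 to 10.7. In G1 cells Erbb2 was again lowest in 39°C replicate 1, at 8.198 CPM beside 10.7 to 11.1. That library has the fewest kept cells, 985, and the highest median UMIs per cell, 16665, and their part in the Erbb2 value was not tested. Met in 39°C replicate 4 was high, at 20.4 CPM beside 17.9 to 18.3. Egfr in G1 cells was low in 37°C replicate 4, at 47.3 CPM beside 54.8 to 56.0 on the scale of the temperature comparison and 46.955 CPM beside 54.6 to 55.5 on the scale of the phase comparison. Pdgfra in G2M cells was low in the same library, at 0.429 CPM beside 0.722 to 0.739. Egfr was found in 20.9% of thinned cells of 37°C replicate 3, beside 18.8% to 18.9% of cells in the other 37°C libraries.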

How the results depend on the processing

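In all cells, 4 to 5 receptors were higher and 1 was lower over 19 alternatives, with Erbb3 at equal totals (0.44, adjusted p = 0.0725) as the lost call. In G1 cells, leaving out single libraries gave 4 to 5 receptors higher and 1 to 2 lower. For G2M against G1, 5 receptors were lower, but 2 with DESeq2, and 3 to 4 when single libraries were left out. The shares of cells gave 5 receptors separated at an exact permutation p under 0.05, 4 to 6 without single libraries and 1 without thinning. At 2000 UMIs it was 4 of the 7 tested, with Ret and Fgfr2 among those not tested. No share over all genes was computed for this measure. With the replicate block in all cells the counts were again 5 higher and 1 lower (Fgfr1 0.83, Ret 1.13, Pdgfrb -0.17), and in G1 cells 4 and 1. The deviations of same-numbered libraries from their temperature's mean had correlations of -0.11, -0.08, -0.07 and 0.20. Pairs with different numbers ran from -0.23 to 0.22. The labels name no pairing, and these correlations cannot show whether same-numbered libraries were made together. Without the library block (no replicate block) the phase comparison had 4 receptors lower, with Egfr lost (adjusted p = 0.0548). Signs turned for these receptors that did not pass. In all cells, leaving out single libraries gave -0.23 to 0.11 for Pdgfra (positive without 37°C replicate 2), -0.55 to 0.072 for Fgfr2 (39°C replicate 3) and -0.075 to 0.027 for Erbb2 (39°C replicate 1). Between phases Ret ranged from -0.41 to 0.14 (0.048 and 0.14 without 37°C replicates 2 and 4), and was 0.00051 with updated phase lists. In percentage points of cells, Pdgfra was 0.0297 and 0.0332 at 2000 and 10000 UMIs, and Fgfr2 -0.0726 unthinned and -0.0234 to 0.0676 without single libraries (-0.00177 without 37°C replicate 1, lowest without 39°C replicate 1). The causes were not tested. Depth limits Ntrk2, Fgfr2 and Ret most.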
